A study of Mus musculus with 12 samples.

Results

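The comparison set 3T3 cells treated with Shld1 at 1 µM against 3T3 cells treated at 100 nM, the upper doses of a series of 4 groups. It used 6 of 12 arrays, namely the 3 whose titles give 1 µM and the 3 whose titles give 100 nM. The arrays of the other groups, control and 10 nM, were left out of the test and are quoted only to place a level. 3T3 is an established mouse fibroblast line, and the labels give the same line for every group, with no genotype, no subline, no vehicle and no length of treatment. On every array the RNA of the cells was labelled with Cy5 and hybridised beside a commercial mouse reference RNA, a mixture of RNA from several sources, labelled with Cy3. Values are therefore log2 ratios of cells over reference, here centred on the median of each array. The base of the logarithm is not stated and was taken as 2. The direction was taken from the dyes, and if the ratio ran the other way every difference would change sign. A positive difference below means a higher ratio at 1 µM than at 100 nM.

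Shld1 is a synthetic ligand of FKBP12, the small immunophilin that also binds FK506 and rapamycin. It was made to fit a mutated FKBP12 that is unstable in cells and pulls down any protein fused to it, and it occupies the pocket of that domain and shields the fusion from the proteasome. The comparison asks which transcripts of the cells differ between the 2 doses. The labels do not say whether the cells measured here carried a fusion with this domain. FKBP12 itself sits on calcium release channels and, when bound by FK506 or rapamycin, blocks calcineurin or mTOR, and the gene lists described below cover these routes beside the usual programmes of a growing fibroblast.

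The arrays held a value for between 30649 and 33615 of 38784 probes, and 31065 probes had a value on at least 2 of 3 arrays at both doses and were tested. Of these, 22353 have 1 gene symbol and stand for 14742 genes. Arrays of 100 nM correlated with each other at 0.817 to 0.865 and arrays of 1 µM at 0.739 to 0.779 over 26930 probes measured on all 6. Arrays of different doses correlated at 0.764 to 0.835. Replicates 1 and 2 of 1 µM were each closer to every 100 nM array than to any other array of their own dose. Replicate 3 of 1 µM was about as close to both, at 0.772 to 0.776 against 0.739 and 0.779. Fibroblast markers averaged between 0.73 and 1.19 on the 6 arrays and leukocyte markers between -1.07 and -0.48, so the labelled cell type stood above the reference and the other cell type below it. That 3 arrays stand for each dose limits the precision. The labels do not say whether the replicates were separate cultures, so the p-values rest on the spread among these 6 arrays, which may be technical.

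No probe separated the 2 doses at an adjusted p under 0.05 (limma, Benjamini-Hochberg over 31065 probes): 0 were higher and 0 were lower, 0% of those tested. The smallest adjusted p was 0.136 and was shared by 3 probes. At an unadjusted p under 0.05 there were 1521 probes, 4.9% of those tested, where 1553 would pass by chance if nothing differed, and 870 of them were higher at 1 µM and 651 lower. With the replicate number as a term in the fit the count was 2087, and with it as a random block 2043, both above 1553. In both fits 0 probes passed the adjusted threshold (limma). Among the 26930 probes measured on every array, all 3 arrays at 1 µM lay above all 3 at 100 nM for 1218 probes (4.52%) and below them for 1394 (5.18%). The median log2 difference of all probes was -0.03 and the median size of a difference 0.174, beside a median standard error of 0.231.

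The intervals say how large a difference these 6 arrays leave room for. For 23478 probes, 75.6% of those tested, the 95% interval of the difference lay within 1 log2 unit on both sides of 0, which is a 2-fold change. It lay within 0.5 for 10.3%. In simulated data with the spread and gaps of these arrays and 200 changed probes among 31065, the same test picked up 0% of those set at 1.5-fold and 5.8% at 2-fold, rising to 58.6% when the change was 4-fold and 81.8% when it was 8-fold. Changes of 2-fold or less were thus mostly not picked up in the simulation. It took each probe's measured spread as its true one and the arrays as independent, so its rates are only a guide to the real arrays. A probe that misses the threshold is not shown to be equal at both doses. Measured differences beyond 2-fold numbered 423 higher and 241 lower. Of these, 173 and 98 were measured on all 6 arrays, and in 91 and 47 of those the 2 groups did not overlap. The split of 423 and 241 moved with the processing and with single arrays. It was 334 and 289 after each array was divided by its slope on the control and 10 nM arrays, 506 and 452 without 1 µM replicate 1, 495 and 384 without 100 nM replicate 2, and 482 and 378 without 1 µM replicate 3.

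**Figure D1:**
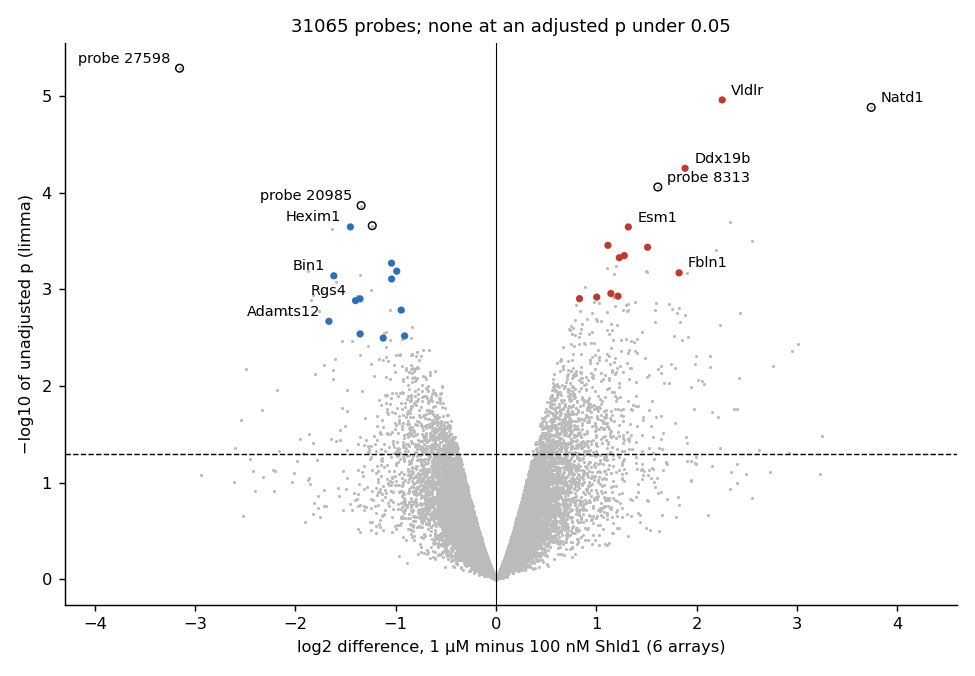
Each of the 31065 probes is plotted by its log2 difference, 1 µM minus 100 nM (horizontal), and by minus log10 of its unadjusted limma p (vertical; the dashed line marks p of 0.05). Red and blue points are the 12 higher and 12 lower named genes, and open circles are probes added after their values were seen; the probes at the top share an adjusted p of 0.136.

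The smallest unadjusted p belonged to probe 27598, which the annotation gives no gene. Its log2 ratios were -1.84, -2.64 and -2.33 at 1 µM (replicates 1, 2 and 3) and 0.47, 1.06 and 1.12 at 100 nM. The groups were far apart, and the arrays of control, mean 1.42 ± 0.50 (SD, n = 3), and of 10 nM, mean 1.29, sat with those of 100 nM. The difference was -3.15 on the log2 scale (SE 0.28, 95% interval -3.80 to -2.51; adjusted p = 0.136, limma), and its adjusted p ranged from 0.0550 to 0.825 over the alternatives. The probe was added after its values were seen.

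Other probes without a symbol that were seen to lie near the top were 8313, 20985 and 23742. Probe 8313 was at 0.06, 0.35 and 0.14 at 1 µM and at -1.76, -1.16 and -1.37 at 100 nM, a difference of 1.61. Probes 20985 and 23742 differed by -1.34 and -1.23. None of these groups overlapped between the doses, and the adjusted p was 0.543 for the first and 0.664 for both others (limma).

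Among the genes with a symbol, the 12 higher and the 12 lower ones with the smallest unadjusted p were taken. Their differences ran from 0.83 to 2.25 upward and from -1.67 to -0.91 downward, with adjusted p of 0.136 to 0.911 (limma), and the doses did not overlap in any of them, which the choice by p brings about. The receptor and matrix genes are given first and the signalling genes after them.

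Vldlr encodes the very low density lipoprotein receptor, a relative of the LDL receptor that takes up apolipoprotein E particles and also binds reelin. Its probe 30114 read -1.47, -0.84 and -1.19 at 1 µM and -3.64, -3.31 and -3.31 at 100 nM. The arrays of each dose were close to each other and their means were 4.77-fold apart, a difference of 2.25 (SE 0.22, 95% interval 1.74 to 2.77; adjusted p = 0.136, limma). The untreated arrays did not side with either dose, since they read -3.88, -1.74 and -1.44, and those of 10 nM read -1.85 and -5.11 with one blank. With all 12 arrays in the fit, the standard error was 0.765 in place of 0.219 and the adjusted p 0.982. The 3 other probes of Vldlr differed by 0.03 to 0.52, all upward and all far less.

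Fbln1 encodes fibulin-1, a glycoprotein of basement membranes and elastic fibres. Its probe was at -0.26, 0.15 and -0.11 at 1 µM against -2.04, -1.18 and -2.47 at 100 nM, a difference of 1.83 (SE 0.33), with 3 other probes at 0.25 to 0.58. Esm1, for the secreted proteoglycan endocan, read 0.28, 0.31 and 0.02 against -0.84, -1.34 and -1.18, a difference of 1.32 (SE 0.20) on its single probe. Control averaged -1.13 ± 1.39 (SD, n = 3) for Fbln1, between the doses, and 0.01 ± 0.21 (n = 3) for Esm1, nearer to the higher dose.

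Ddx19b encodes a DEAD-box helicase that works on messenger RNA at the nuclear pore. Its probe read -0.16, -0.16 and -0.54 at 1 µM and -1.90, -2.06 and -2.56 at 100 nM, a difference of 1.89 (SE 0.23; adjusted p = 0.434, limma). A second probe of the gene differed by only 0.10, and Ddx19a is a close relative, so which transcript each probe reads was not tested. As3mt, the arsenite methyltransferase, had a second probe close to the first, at differences of 0.93 and 1.28 (SE 0.22). It read -0.92, -0.69 and -0.81 at 1 µM and -2.34, -2.22 and -1.71 at 100 nM.

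The other higher genes were Olfr73 (an odorant receptor, 1.51), Cd72 (an inhibitory receptor of B cells, 1.23), Septin6 (a septin of the cytoskeleton, 1.22), Hacd4 (a dehydratase of long-chain fatty acid elongation, 1.15), Iglj4 (a joining segment of the immunoglobulin lambda locus, 1.12), Rrm2b (the p53-inducible subunit of ribonucleotide reductase, 1.00) and Lrrc39 (a leucine-rich repeat protein of the sarcomere, 0.83). Second probes had the same sign for Septin6, Hacd4 and Rrm2b, at 0.28 to 0.53, and not for Lrrc39, at -0.06. Olfr73, Cd72, Iglj4 and Lrrc39 are typical of other cell types than fibroblasts. Each of the 12 higher genes had a mean below 0 at 100 nM, that is, below the median ratio of the arrays.

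Hexim1 led the genes that were lower at 1 µM. It encodes the protein that, with 7SK RNA, holds the elongation kinase P-TEFb inactive. Its single probe read 1.46, 1.00 and 1.57 at 1 µM and 2.58, 2.80 and 3.01 at 100 nM, a difference of -1.45 (SE 0.22, 95% interval -1.97 to -0.94; adjusted p = 0.664, limma). Control arrays, at 1.54, 2.03 and 1.42, overlapped the higher dose, and 1 of the 10 nM arrays was at -0.10.

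Adamts12 encodes a secreted metalloprotease of the matrix. It read -0.91, -0.04 and -0.51 at 1 µM and 1.26, 0.49 and 1.78 at 100 nM, a difference of -1.67 (SE 0.36), with a second probe at -0.46. Bin1, an amphiphysin-like protein that bends membranes, read -0.12, 0.09 and 0.64 against 1.88, 1.34 and 2.23, a difference of -1.62 (SE 0.29). Its 3 other probes lay between -0.25 and 0.00, close to no difference.

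Rgs4, which speeds the shutdown of heterotrimeric G proteins, read 1.11, 1.13 and 1.16 at 1 µM and 2.54, 1.97 and 3.08 at 100 nM, a difference of -1.40 (SE 0.28). The 1 µM arrays were almost equal, while those of control spread from 1.25 to 3.57. Pde3a, a phosphodiesterase of cyclic AMP and cyclic GMP, read -0.09, -0.32 and -0.09 against 0.73, 1.00 and 0.74, a difference of -0.99 (SE 0.18). Its 2 other probes were lower too, at -0.49 and -0.30.

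The remaining lower genes were Vmn1r84 (a vomeronasal receptor, -1.35), Lrrtm4 (a synaptic adhesion protein, -1.12), Padi4 (a peptidylarginine deiminase, -1.04), Nkd2 (an inhibitor of Wnt signalling that binds Dishevelled, -1.04), Cd55b (a decay-accelerating factor of complement, -0.95), Grb14 (an adaptor that inhibits the insulin receptor, -0.91) and B2m (the light chain of MHC class I, probe 24364, -1.36). The second probe of Padi4 went the other way by 1.42 and that of Cd55b by 0.65. B2m was printed many times over: of its 72 other probes 33 were lower, their median difference was 0.01, and they ran from -0.65 to 1.17. The low value of probe 24364 is therefore not shared by the gene's other spots.

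**Figure D2:**
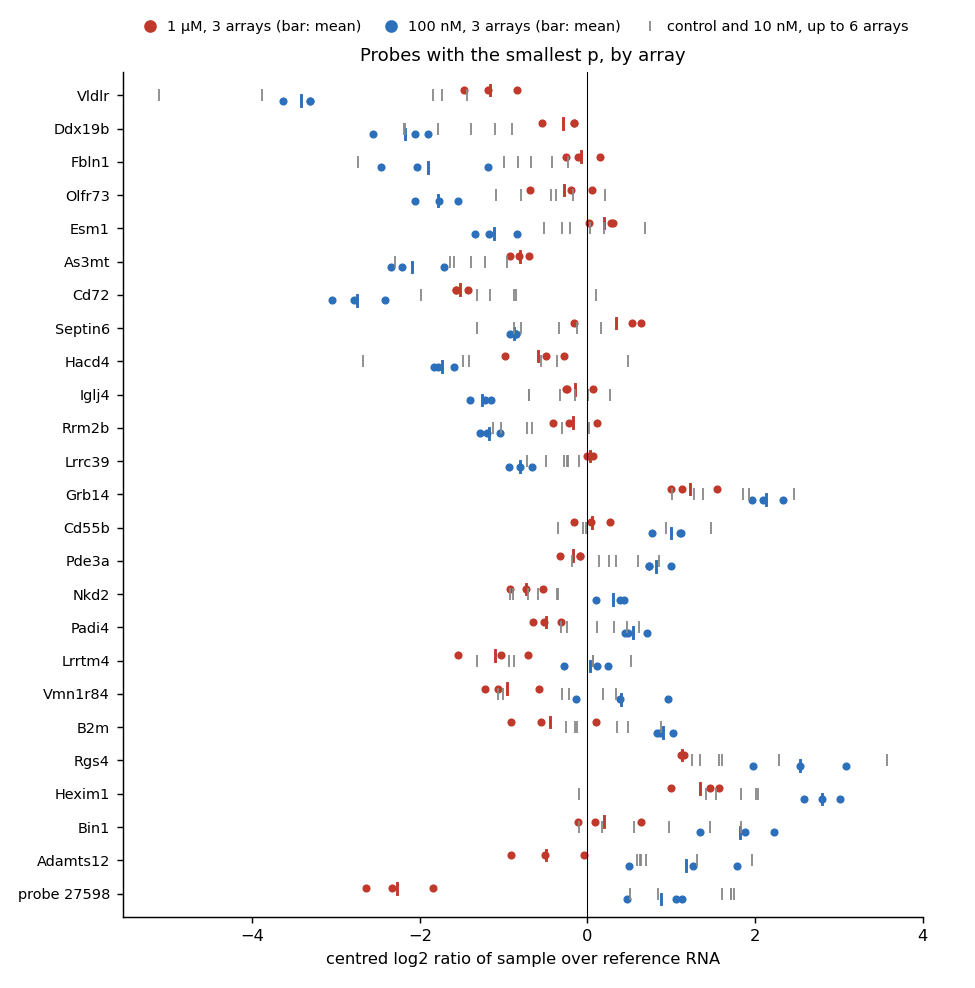
Centred log2 ratio of each array (horizontal) for the 24 named genes and probe 27598 (rows), with 1 µM in red, 100 nM in blue, bars for their means and grey ticks for the control and 10 nM arrays. Red and blue do not overlap in any row, while grey ticks often reach across both, as for Vldlr, whose 10 nM arrays lie at -1.85 and -5.11.

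Probes of one gene often went different ways. Of the 24 named genes, 15 had other probes tested, and these all shared the sign of the named probe in 11, while 9 rested on a single probe. Over the 2858 genes with exactly 2 probes on all 6 arrays, both differences had the same sign in 1591, or 55.7%, and correlated at 0.159 across genes, which are not independent replicates. Where one of the probes was beyond 2-fold, 25 of 42 pairs shared the sign and 1 pair was beyond 2-fold in both.

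The arrays that the comparison left out add a second measure of spread. For 22 of 24 named genes the control mean lay between the means of the doses, and for 24 of 24 the 100 nM mean lay on the far side of control from the direction of the difference, 12 below it among the higher genes and 12 above it among the lower ones. The choice of these genes by their difference between the doses favours both counts. They therefore cannot tell whether either dose shifted these genes from control, which was not tested. With all 12 arrays setting the spread, the standard error was larger in 23 of 24, by 1.4 times at the median and 3.49 times at most, and the adjusted p lay between 0.696 and 0.982 (limma).

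Natd1, which encodes a small protein with an acetyltransferase domain, had the largest measured value of the genes discussed, but on 2 arrays a dose. It read 1.59 and 1.88 at 1 µM and -2.16 and -1.85 at 100 nM, with replicate 1 blank at both doses, a difference of 3.74 (SE 0.26; adjusted p = 0.136, limma). Control arrays were at 1.25, 1.65 and -0.44 and those of 10 nM at -2.07, 1.89 and -1.61. The same range was thus covered by arrays of equal treatment. This gene was added after its values were seen.

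The 32 gene lists cover 638 genes with a value, and 0 of them passed (limma, smallest adjusted p over the 14742 genes 0.160; 31 had an unadjusted p under 0.05). Over all genes, 6459 were higher and 8279 lower, or 43.8% higher, with a median of -0.03 and quartiles of -0.18 and 0.12. An unadjusted p under 0.05 was reached upward by 2.88% of genes and downward by 2.16%, and of the 13397 genes measured on every array, 4.43% did not overlap upward and 5.55% downward. Counts of list members are to be read against these shares. The mean and the median of a list differ in sign for PDGF, IGF and FGF signalling (mean 0.05), p53 targets (0.08), NRF2 (0.04), lysosome (0.02), adipocyte markers (-0.15) and contractile genes (-0.01), where a few members lie far from the rest or the median is near 0. For 553 of the 638 members the 95% interval lay within 1 log2 unit of 0.

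**Figure D3:**
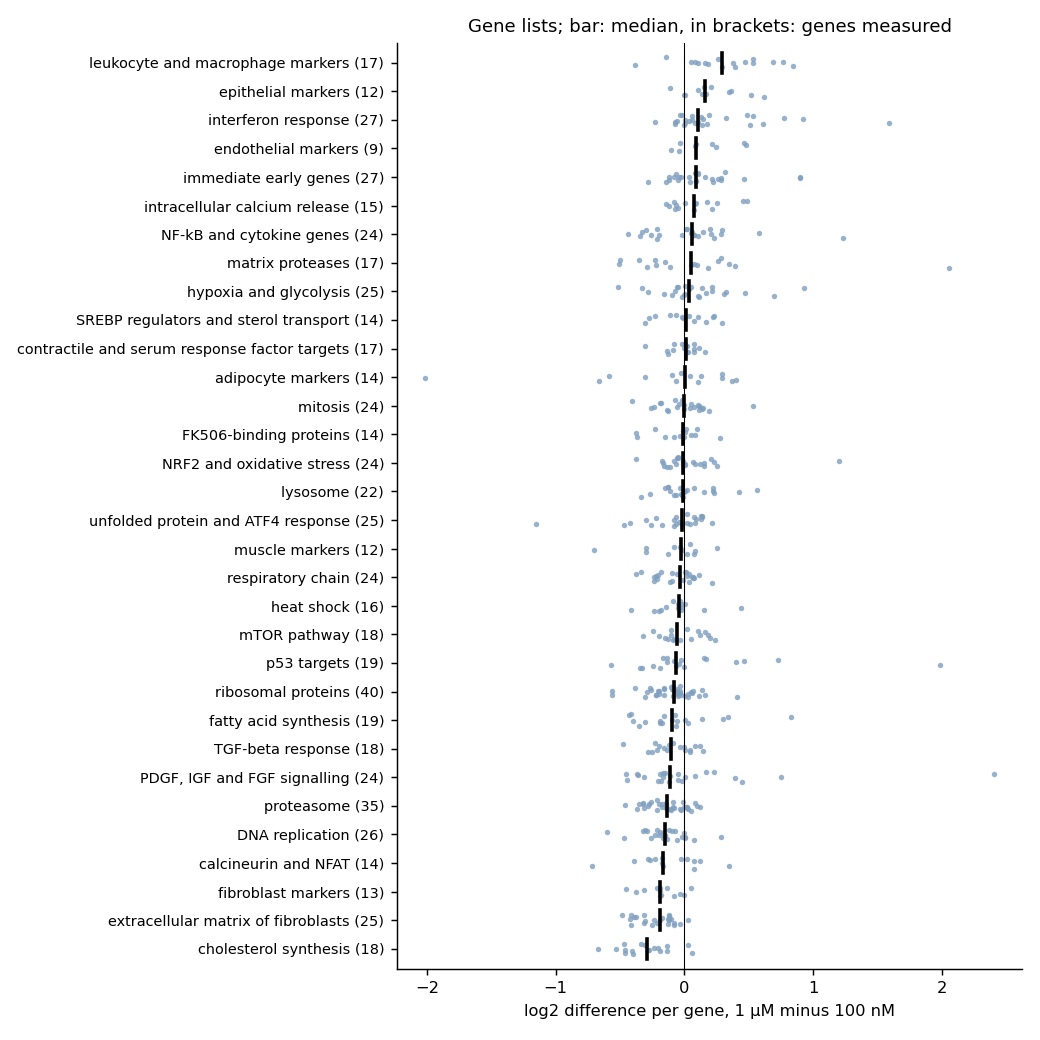
Log2 difference per gene, 1 µM minus 100 nM (horizontal), for each measured member (points) of the 32 lists (rows), with the list median as a bar. Medians run from -0.29 for cholesterol synthesis to 0.29 for leukocyte markers, and no member passed the test.

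One measured property of the arrays moves with several lists. The differences between the doses depended on how far a probe stood from the reference: against the mean of the control and 10 nM arrays, over 25745 probes, they had a slope of -0.09 and a correlation of -0.211. Probes far below the reference (1074 between -2 and -1) had a median difference of 0.11, with 63.0% higher. The 257 probes below -2 had a median of 0.09, with 62.3% higher, and medians of 0.03, -0.06 and 0.36 in replicates 1, 2 and 3. Probes far above the reference (121 at 2 or more) had a median of -0.26, with 9.92% higher. At this upper end it came from replicate 3, where the 121 probes differed by a median of -0.71, against -0.00 and -0.03 in replicates 1 and 2. The array of 1 µM replicate 3 had the flattest ratios of the 6, with a slope of 0.833 on the control and 10 nM arrays where the others had 0.972 to 1.14. A narrower spread of ratios on that array and a true change of these genes cannot be told apart from these values.

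**Figure D4:**
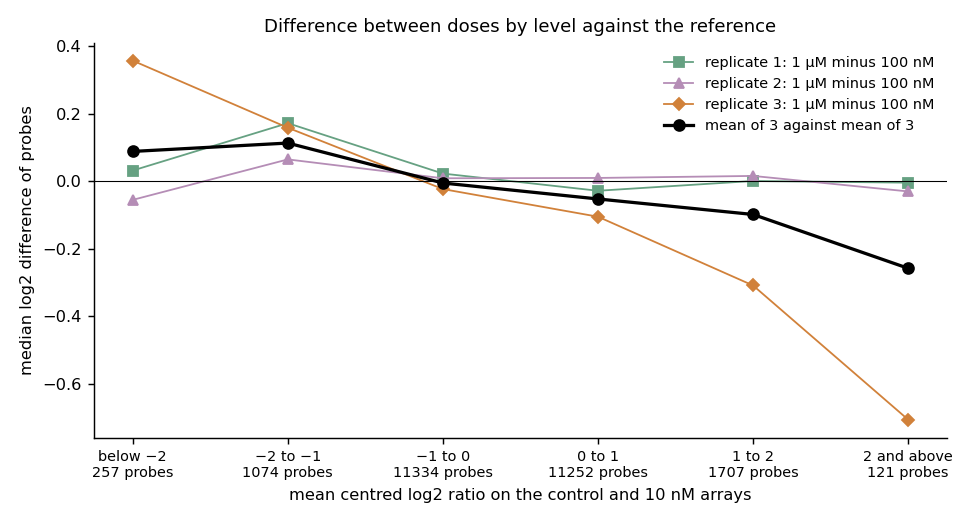
Median log2 difference, 1 µM minus 100 nM (vertical), of probes grouped by their mean centred log2 ratio on the control and 10 nM arrays (horizontal), for the means of 3 arrays (black) and for each replicate number (coloured). The orange line of replicate 3 runs from 0.36 to -0.71 while those of replicates 1 and 2 stay between -0.06 and 0.17.

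FK506-binding proteins are the family of prolyl isomerases to which the target of Shld1 belongs, and some sit in receptor and channel complexes. Fkbp1a, which encodes FKBP12 itself, read 0.53, 0.52 and 0.27 at 1 µM and 0.48, 0.41 and 0.53 at 100 nM as the mean of 3 probes. These values overlap, and the difference was -0.04 (SE 0.15, 95% interval -0.39 to 0.31; limma). Of the 14 measured members 6 were higher and 8 lower with a median of -0.01, 0 passed, and 2 did not overlap downward. The median kept its sign in 13 of 18 alternatives. It was -0.11 without 1 µM replicate 1 and 0.03, with 9 higher and 5 lower, without 1 µM replicate 3. With all 6 arrays scaled to an equal median absolute deviation it was 0.01, with 8 higher and 6 lower. The 2 members that did not overlap were Fkbp14, a prolyl isomerase of the endoplasmic reticulum that acts on collagen, at -0.38 (SE 0.15), and its relative Fkbp7 at -0.37 (SE 0.15). Fkbp14 read -0.12, -0.22 and -0.23 against 0.18, 0.07 and 0.31, and Fkbp7 read 0.08, -0.18 and -0.02 against 0.27, 0.31 and 0.41.

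The routes that other FKBP12 ligands block showed small differences. In calcineurin and NFAT, the calcium-driven phosphatase and the factors it frees, 5 of 14 members were higher and 9 lower with a median of -0.17, or -0.09 without 1 µM replicate 1, -0.10 without 1 µM replicate 3 and -0.11 without 100 nM replicate 2, and 0 passed. The calcineurin regulator Rcan1, known as a target of NFAT, was at 0.35 (SE 0.23) and its relative Rcan2 at -0.71 (SE 0.36), while Nfatc3 was at -0.39 (SE 0.17). In the mTOR pathway 8 of 18 were higher and 10 lower with a median of -0.06 and 0 passed. That median was -0.11 without 100 nM replicate 1, -0.01 without 1 µM replicate 1 or 100 nM replicate 3, -0.00 without 100 nM replicate 2, -0.03 without 1 µM replicate 3 and 0.05 after the correction along probe numbers. Its kinase, Mtor, was at 0.23 (SE 0.15) and Mapkap1, a subunit of the second mTOR complex, at -0.32 (SE 0.15). In intracellular calcium release 9 of 15 were higher and 6 lower with a median of 0.07 (0.02 without 100 nM replicate 2 or 1 µM replicate 2, and 0.13 without 1 µM replicate 3) and 0 passed, and the inositol trisphosphate receptor Itpr2 was at 0.45 (SE 0.20), at -0.73, -0.37 and -0.09 against -0.90, -0.75 and -0.91.

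Cholesterol synthesis had the lowest median of the lists, a rank that it lost without 100 nM replicate 3. Its enzymes turn acetyl-CoA through mevalonate and squalene into cholesterol, and their genes are driven together by SREBP factors when sterols run short. Of 18 measured members 2 were higher and 16 lower, with a median of -0.29 beside -0.03 for all genes, and 0 passed. For 3 of them the doses did not overlap, all lower at 1 µM, and the same 3 had an unadjusted p under 0.05 (limma). Hmgcs1, the HMG-CoA synthase that feeds the mevalonate route, read 0.48, 0.19 and 0.72 at 1 µM and 1.08, 0.89 and 1.45 at 100 nM, a difference of -0.67 (SE 0.21, 95% interval -1.17 to -0.17). Control cells, at 0.95 ± 0.45 (SD, n = 3), lay between.

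Mvk, the mevalonate kinase, read 1.04, 0.79 and 1.23 against 1.44, 1.43 and 1.58, a difference of -0.47 (SE 0.17). Sqle, the squalene epoxidase, read 0.44, 0.70 and 0.65 against 0.93, 0.86 and 1.37, a difference of -0.46 (SE 0.19). Both were close to control at 100 nM and lower at 1 µM, with control means of 1.38 and 0.95. The other members ran from -0.53 to 0.06, and the intervals of all but Hmgcs1, Mvk and Sqle included 0.

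One array carried much of this list. The mean of the 18 genes was 0.38, 0.39 and 0.51 on the arrays of 1 µM and 0.65, 0.48 and 1.05 on those of 100 nM, so the groups overlapped between 1 µM replicate 3 and 100 nM replicate 2. The array of 100 nM replicate 3 was the highest of the 6 for 14 of 18 genes. Without it 13 were lower and the median was -0.12, above those of fibroblast markers (-0.15), calcineurin and NFAT (-0.13) and matrix genes (-0.13), and without 100 nM replicate 2 it was -0.41. With each array divided by its slope, the median was -0.24.

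**Figure D5:**
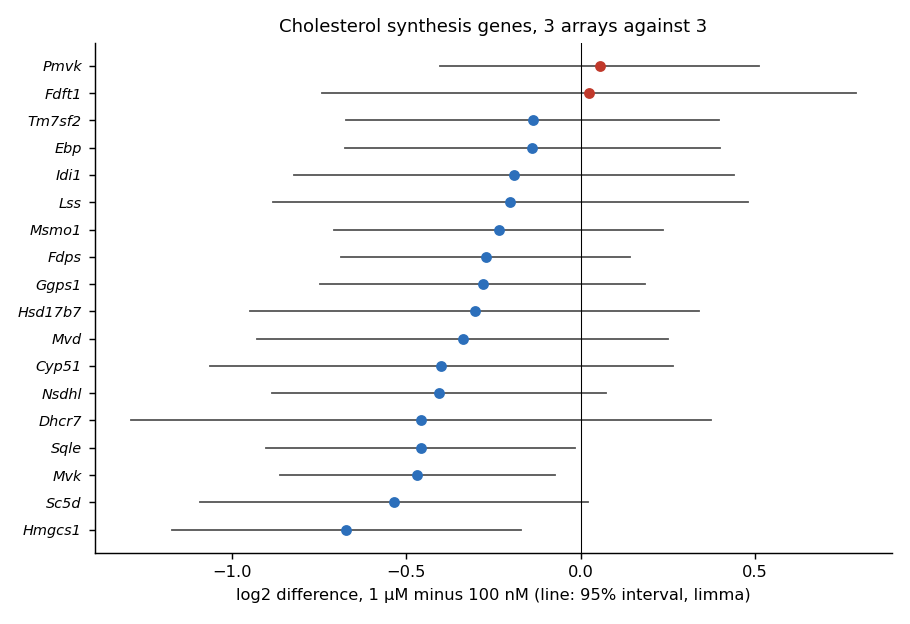
Log2 difference, 1 µM minus 100 nM (horizontal), of the 18 measured cholesterol synthesis genes (rows), with the 95% interval of the limma fit as a line. Blue points are below 0 and red above, 16 and 2 of them, and only the intervals of Hmgcs1, Mvk and Sqle leave out 0.

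SREBP acts through sterol regulatory elements in promoters. A match to a motif of this element is shown for Hmgcs1, the only cholesterol gene searched that had one. The stretch lies at chr13:119690184-119690252 of GRCm38.p6 on the plus strand, upstream of the gene's RefSeq start, and the capitals mark TCACCCCAC, 137 to 129 bases before that start.
Hmgcs1: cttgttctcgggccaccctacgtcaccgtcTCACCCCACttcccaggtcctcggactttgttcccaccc
The motif searched was TCACNCCAC on both strands of the 300 bases from 250 before to 50 after the start. It was present in 1 of 16 cholesterol genes with a promoter in the RefSeq table (6.25%), in 0 of 14 SREBP regulators and in 388 of all 27025 genes (1.44%). A match describes the letters and is no measure of binding.

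Of 14 SREBP regulators and sterol transporters 7 were higher and 7 lower with a median of 0.01, which turned to -0.00 without centring and -0.06 without 1 µM replicate 3, and 0 passed. Insig1, a sensor that holds the SREBP escort protein back and is itself an SREBP target, read 1.69, 1.42 and 1.57 against 1.78, 1.58 and 2.24, a difference of -0.30 (SE 0.21). Npc1, which exports cholesterol from lysosomes, was at 0.29 (SE 0.17), and Mbtps2, the protease that cuts SREBP within the membrane, at 0.22 (SE 0.14). In fatty acid synthesis 6 of 19 were higher and 13 lower with a median of -0.10, and 0 passed. The desaturase Fads2 read 0.45, 0.49 and 0.34 against 0.81, 0.72 and 1.04, with no overlap and a difference of -0.43 (SE 0.16). Acsl3 was at -0.42 (SE 0.23), and Agpat2 went the other way, at 0.83 (SE 0.48). The median of this list ran from -0.22 without 1 µM replicate 1 to 0.02 without 100 nM replicate 3. The difference between the enzyme and regulator lists was not tested.

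Matrix genes of fibroblasts, the collagens and the proteins that bind and crosslink them, were lower at 1 µM in 24 of 25 members, with a median of -0.19, and 0 passed. In 5 of them the doses did not overlap. Timp3, a metalloprotease inhibitor held in the matrix, read 2.27, 2.46 and 2.40 against 2.89, 2.53 and 3.16, a difference of -0.48 (SE 0.20). Timp1, its soluble relative, read 1.50, 1.33 and 1.38 against 1.96, 1.64 and 1.79, a difference of -0.39 (SE 0.16), and Tnc (tenascin C) was at -0.31 (SE 0.15). The list stands above the reference, at means of 1.13, 1.10 and 0.92 for 1 µM and 1.20, 1.16 and 1.47 for 100 nM. Its median was -0.09, with 17 lower, after each array was divided by its slope and -0.13 without 100 nM replicate 3, and 18 were lower without 1 µM replicate 3. The part of the ratio scale in the list's difference was not tested beyond these values.

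Fibroblast markers, which share 5 genes with the matrix list, were lower in 12 of 13 with a median of -0.19, or -0.07 after division by the slopes, and 0 passed. Without 1 µM replicate 2 the median was -0.31 and without 1 µM replicate 3 it was -0.12. The receptor gene Pdgfrb read 0.83, 1.39 and 1.28 against 1.36, 1.63 and 1.88, a difference of -0.46 (SE 0.22), and Dcn (decorin) was at -0.31 (SE 0.16). Less RNA per cell and fewer cells of a type cannot be told apart in such samples.

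Proteases of the matrix had no common direction, with 9 of 17 higher, 8 lower, 0 passed and a median of 0.05, which was -0.00 after division by the slopes and ran from -0.11 without 1 µM replicate 1 to 0.10 without 1 µM replicate 3. Mmp3 (stromelysin 1) read -2.38, -1.96 and -2.34 at 1 µM and -3.28 and -5.29 at 100 nM with replicate 2 blank, a difference of 2.05 (SE 0.56). Both values at 100 nM lay below those at 1 µM, and control averaged -3.88 ± 1.72 (SD, n = 3). Mmp2 (gelatinase A) went the other way, at 1.38, 1.10 and 0.91 against 1.55, 1.52 and 1.84, a difference of -0.51 (SE 0.18), as did Adamts1 at -0.50 (SE 0.18).

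Among growth factor pathways, the list of PDGF, IGF and FGF signalling had 8 of 24 higher and 16 lower with a median of -0.12. The feedback inhibitor Spry4 was at 0.39 (SE 0.19) and the receptor Fgfr1 at -0.37 (SE 0.19). The TGF-beta response had 6 of 18 higher and 12 lower with a median of -0.11, or -0.05 without 1 µM replicate 3 and -0.17 without 1 µM replicate 2, and Tgfbi, a matrix protein named for its induction by TGF-beta, was at -0.47 (SE 0.26). Contractile genes and targets of serum response factor had 10 of 17 higher and 7 lower with a median of 0.01, which was -0.01 without centring and -0.05 without 1 µM replicate 2, and Ccn2 (connective tissue growth factor) was at -0.30 (SE 0.15). In each of these lists 0 passed.

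Immediate early genes, which answer growth factors and stress within minutes, were higher in 18 of 27 with a median of 0.09, and 0 passed. Dusp1, the phosphatase that switches off MAP kinases, read -1.19, -1.39 and -1.05 at 1 µM and -2.40, -1.55 and -2.38 at 100 nM, with no overlap and a difference of 0.90 (SE 0.26). Zfp36, which speeds the decay of cytokine transcripts, was at 0.46 (SE 0.20) and Nr4a1 at 0.28 (SE 0.18). With one array left out the median ran from 0.01, without 100 nM replicate 1, to 0.17, without 1 µM replicate 3. These 3 genes lie below the reference on all 6 arrays.

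The interferon response, the antiviral and guanylate-binding genes, was higher in 20 of 27 with a median of 0.10, and 0 passed. An unadjusted p under 0.05 was reached by 4 members, all higher, and 3 did not overlap (limma). Mx2, a dynamin-like antiviral GTPase, read 0.29 and 0.06 at 1 µM and -1.66 and -1.16 at 100 nM with one blank at each dose, a difference of 1.59 (SE 0.26). Gbp3 read -0.90, -0.37 and -0.82 against -1.90, -1.05 and -1.91, a difference of 0.92 (SE 0.28), and Igtp (an immunity-related GTPase) read -1.37, -1.62 and -1.59 against -1.79, -2.74 and -2.37, a difference of 0.77 (SE 0.25). The means of the list were -0.75, -0.63 and -0.42 at 1 µM and -0.88, -0.70 and -0.81 at 100 nM, which overlap. Its median ran from 0.04 without 1 µM replicate 3 to 0.20 without 1 µM replicate 1, and was 0.04 after division by the slopes.

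NF-kB and cytokine genes were higher in 15 of 24 with a median of 0.06, which was -0.00 without 100 nM replicate 3, -0.04 without 1 µM replicate 1 and -0.02 without 1 µM replicate 2, and 0 passed. Tnfaip3 (the NF-kB brake A20) read -0.30, -1.52 and 0.35 against -1.85, -1.21 and -2.10, which overlap, at a difference of 1.23 (SE 0.47). Cxcl1 and Ccl7 went the other way, at -0.34 (SE 0.21) and -0.33 (SE 0.205). Leukocyte and macrophage markers were higher in 15 of 17 with a median of 0.29, and 0 passed. The other 2 were lower, down to -0.38. The doses did not overlap in only 1 member, and it was lower at 1 µM. Cd14, the co-receptor for lipopolysaccharide, read 0.14, -0.58 and 0.00 against -1.12, -0.39 and -1.46, which overlap, at a difference of 0.84 (SE 0.31). Ptprc, the pan-leukocyte antigen CD45, read -3.15, -2.07 and -1.75 against -2.64, -3.62 and -3.02, far below the reference at both doses.

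The leukocyte list averaged -0.84, -0.62 and -0.48 at 1 µM and -1.07, -0.73 and -1.05 at 100 nM, so the doses overlapped. After division by the slopes its median was 0.21, and without 1 µM replicate 1 it was 0.47. Epithelial markers averaged -0.48, -0.47 and -0.36 at 1 µM and -0.68, -0.61 and -0.67 at 100 nM, so for this list the doses did not overlap. List means of matrix genes and of calcineurin and NFAT did not overlap either, both lower at 1 µM. For calcineurin and NFAT they were -0.21, -0.0443 and -0.12 against -0.0414, 0.00 and 0.05. Epithelial markers were higher in 10 of 12 with a median of 0.16, or 0.12 after division by the slopes. Leaving out one array moved the median between 0.10, without 100 nM replicate 2 or 1 µM replicate 3, and 0.28, without 100 nM replicate 3. Krt18 and Krt8, the keratins of simple epithelia, were at 0.62 (SE 0.38) and 0.34 (SE 0.21). Of 9 endothelial markers 6 were higher with a median of 0.09, and of 12 muscle markers 5 with a median of -0.02. The endothelial median was 0.31, with 8 higher, without 1 µM replicate 1, 0.21 and 0.17 without 100 nM replicates 2 and 3, and -0.00, with 4 higher, without 1 µM replicate 3. The muscle median ran from -0.11 without 1 µM replicate 2 to 0.02 without 100 nM replicate 3. In these lists 0 passed, and the part of such cells in the differences was not tested.

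Adipocyte markers were divided, 7 of 14 higher and 7 lower, with a median of 0.01 that turned to -0.01 after division by the slopes, and 0 passed. It ran from -0.08 to 0.12 without 100 nM replicates 1 and 2. The hormone gene Adipoq (adiponectin) read 0.48, 0.88 and 0.31 against 1.11, 1.12 and 1.20, a difference of -0.59 (SE 0.19). Lipe (hormone-sensitive lipase) read -0.27, -0.75 and 0.19 against 0.52, 0.39 and 0.24, a difference of -0.66 (SE 0.25). In both the doses did not overlap, while Cidec, a protein of lipid droplets, was at 0.37 (SE 0.17).

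DNA replication genes, the licensing factors, polymerases and nucleotide makers of S phase, were lower in 22 of 26 with a median of -0.15, and 0 passed. In 7 of them the doses did not overlap, all lower at 1 µM. Rpa2, a subunit of the single-strand binding protein RPA, read 0.37, 0.11 and -0.08 against 0.57, 0.64 and 0.61, a difference of -0.47 (SE 0.17). Rrm1, the large subunit of ribonucleotide reductase, was at -0.26 (SE 0.14), and Pcna, the sliding clamp, at -0.60 (SE 0.26) on 2 arrays a dose. The means were 0.50, 0.48 and 0.21 at 1 µM and 0.58, 0.48 and 0.56 at 100 nM, so 1 µM replicate 3 was lowest, and without it the median was -0.11.

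Of the mitosis genes 11 of 24 were higher and 13 lower with a median of -0.00 and 0 passed, and Cdk1 was at -0.24 (SE 0.16). This division moved with single arrays. It was 5 higher and 19 lower (median -0.10) without 1 µM replicate 1, and 16 higher and 8 lower (0.17) without 1 µM replicate 3. Whether the replication and mitosis lists differ was not tested. Of the p53 targets 6 of 19 were higher and 13 lower with a median of -0.06, which was 0.05 without 1 µM replicate 1, and 0 passed. The doses did not overlap in 5 of them, 4 lower and 1 higher. Plk2, a polo-like kinase, read -0.09, -0.33 and -0.59 against -0.07, -0.06 and 0.11, a difference of -0.33 (SE 0.18). The others, taken because they did not overlap, were Zmat3 at -0.25, Tnfrsf10b at -0.19 and Ccng1 at -0.17. The higher one, Rrm2b, named above, was at 0.72 (SE 0.15) as the mean of both probes, which read -0.04, 0.17 and 0.15 against -0.63, -0.51 and -0.75. Its unadjusted p in limma was 0.00190 and its adjusted p 0.952. Perp, measured on 2 arrays a dose, was also higher, at 1.99 (SE 0.87), with -2.88 and -0.97 against -2.93 and -4.9.

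Protein quality lists were close to the median of all genes or a little below it. The proteasome, by which an unshielded destabilizing domain is removed, was lower in 27 of 35 subunits with a median of -0.13, and 0 passed. Psmd6 and Psmc3, subunits of its regulatory cap, were at -0.46 (SE 0.17) and -0.37 (SE 0.15). Psmd6 read 0.66, 1.16 and 0.97 against 1.39, 1.44 and 1.34, with no overlap. The list median was -0.05 without 100 nM replicate 3 and -0.08 without 1 µM replicate 3. Heat shock genes were lower in 13 of 16 with a median of -0.04, or 0.02 without 1 µM replicate 3. Their member Hspa4l, a co-chaperone of HSP70, was higher without overlap, at -0.14, -0.17 and -0.11 against -0.53, -0.46 and -0.77, a difference of 0.44 (SE 0.15). The unfolded protein and ATF4 response had 11 of 25 higher with a median of -0.02, or 0.03 without 1 µM replicate 3, and Pdia6, a disulfide isomerase, was at -0.47 (SE 0.20). In both lists 0 passed.

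Hypoxia and glycolysis genes were mixed, with 15 of 25 higher, 10 lower, 0 passed and a median of 0.04 that turned to -0.05 after division by the slopes and was 0.18 without 1 µM replicate 1. Car9, a carbonic anhydrase induced by HIF, read -1.13, -1.52 and -0.85 against -1.94, -2.52 and -1.82, with no overlap and a difference of 0.93 (SE 0.25). Egln3, an oxygen sensor that is itself a HIF target, was at 0.70 (SE 0.27), and Pkm (pyruvate kinase) at -0.52 (SE 0.21). NRF2 and oxidative stress genes had 11 of 24 higher with a median of -0.01, which was 0.00 after division by the slopes and 0.05 without 1 µM replicate 3. Slc7a11, the cystine importer, was at 1.20 (SE 0.59), with -3.25 on 100 nM replicate 1 against -0.98 and -1.11 on the other arrays of that dose.

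Ribosomal protein genes were lower in 30 of 40 with a median of -0.08 (-0.04 without 100 nM replicate 3 and -0.13 without 1 µM replicate 1), respiratory chain genes in 13 of 24 with a median of -0.04, and lysosomal genes in 13 of 22 with a median of -0.01, which was 0.03 after division by the slopes. In each of these 0 passed. Without 1 µM replicate 1 the respiratory genes were lower in 18 of 24 (median -0.14) and the lysosomal genes in 16 of 22 (-0.04). Without 1 µM replicate 3 the respiratory genes were divided 12 and 12 (0.00), and the lysosomal genes were lower in 9 (0.11). Neu1, the lysosomal sialidase, read -0.13, -0.49 and -0.54 against -0.90, -0.99 and -0.94, with no overlap and a difference of 0.56 (SE 0.17). Lipa, the lysosomal acid lipase, was at 0.42 (SE 0.18). The lowest ribosomal value among those named was that of Rps24, at -0.57 (SE 0.21) with one array of 1 µM blank.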

How the data were processed

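RNA of 3T3 cells was measured on 12 arrays of 2 colours, 3 for each group, and the 6 arrays at 1 µM and 100 nM enter the test. The values are the log2 ratios per probe that the authors deposited, with log base 2 assumed. The authors' normalization, background correction and spot filter were not given in the sources used here. Scale and centring therefore stay unknown. No scanner intensities were used, and signal over background is unknown. On the 6 arrays 13.3% to 21.0% of probes were blank and medians lay between -0.20 and -0.10.

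After centring each array on its median, 31065 probes that had values on 2 or 3 arrays of both doses were fitted with limma 3.58.1 (R 4.3.3) and a term for dose, with 7719 left out. Benjamini-Hochberg adjustment ran over all probes fitted. The fit was checked on 10 simulated sets. Symbols came from the platform annotation, updated by gene identifier from the RefSeq table (GRCm38.p6): 26173 probes had 1, 28 several and 12583 none. A gene's value is its average over probes without a blank on the 6 arrays, or else the tested probe with most values. Its standard error and p come from a fit of 14742 such values.

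Named are the 12 higher and 12 lower genes of smallest unadjusted p, passing over provisional symbols. They come from probes with 1 symbol and a value on all 6 arrays. Fkbp1a and up to 3 members of each list by p were also chosen, and some of these members are not printed. Probe 27598, other probes without a symbol, Natd1, Zmat3, Tnfrsf10b and Ccng1 were added after their values were seen. The comparison, its members and the 32 gene lists were chosen with earlier results of these data known, and lists are described by counts and medians with no set test. The sterol element was searched in the RefSeq promoter table. Alternatives covered scaling, probe filters, replicate blocks, all 12 arrays, robust variance, array weights, a correction along runs of 400 probe numbers, 1 value per gene and leaving out each array. Division by each array's slope was added after seeing the data. Tables and plots used Python 3.11.15 and matplotlib 3.10.9.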

Additional observations from a re-analysis of the deposited data

How the results depend on the processing

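In all 19 alternatives 0 probes were called in limma, with the smallest adjusted p between 0.0550, for probes measured on all 6 arrays, and 0.825, without 100 nM replicate 3. The count at an unadjusted p under 0.05 was 1521 probes, 742 of 14742 with 1 value per gene, where fewer features were tested, and 1181 to 2279 when one array was left out. Arrays with the same number in the labels deviated together at 0.243, 0.140 and 0.0819, and those of different numbers at -0.174 to 0.0634. The labels' array numbers also run by replicate, but the labels do not state that the numbers pair the samples. With a replicate block 0 probes were called and 2087 had an unadjusted p under 0.05, and with a random block (consensus correlation 0.167) 0 and 2043. The named probes kept their sign in every alternative that used the probe itself, while Padi4 as the mean of its probes was at 0.19. Natd1 has no value where all 6 arrays are required. Of the 32 list medians 14 kept their sign throughout. Groups that did not overlap numbered 1218 higher and 1394 lower, 1043 and 1574 without centring, and 1328 and 1357 after division by the slopes. The number of arrays and the unknown signal over background limit what can be seen at 2-fold or less.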
